A study of Mus musculus with 12 samples.

Results

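Complement genes transcribed by the macrophages of MC38 tumors were described across cell clusters, host strains and antibody treatments. The members were chosen by name as 9 of the 27457 gene rows of the count table: C1qa, C1qb, C1qc, C3, C3ar1, C5ar1, Cfb, Cfp and C4b. For each, unique molecular identifiers (UMIs, each marking 1 captured transcript) were summed by cluster and by tumor, and all 9 passed the filter on low counts in every comparison over all macrophages. MC38 is a colon carcinoma line of C57BL/6J (B6) origin, and it was injected under the skin of female mice aged 8 to 12 weeks. At a tumor size of 75 to 110 mm3 each mouse received 200 µg of antibody into the peritoneum, either the isotype control 2A3 or the PD-1 antibody 29F.1A12 (aPD1). After 48 h the tumors were frozen and later sorted to 90% CD45+ and 10% CD45- cells, and 4 hashtagged tumors were pooled in each of 12 single-cell 5′ libraries.

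Hosts were B6 mice or F1 mice of B6 and a Collaborative Cross (CC) strain, a recombinant inbred line of several founder strains. All hosts carried at least 1 B6 haplotype, and the labels name no engineered allele. The study classed F1 hosts of CC001/UncJ, CC002/UncJ and CC075/UncJ as responders to aPD1 from tumor growth in other animals, and those of CC036/UncJ, CC079/TauUncJ and CC080/TauUncJ as non-responders. The sample labels give the strain and not the class. There were 10 responder isotype, 10 responder aPD1, 9 non-responder isotype and 9 non-responder aPD1 tumors, and another 10 tumors of B6 and CC007/UncJ F1 hosts had no class. Strains are named below by their CC number. The replicate was the tumor, 1 hashtagged specimen of 1 pool. Hashtags 1 and 3 marked isotype tumors and hashtags 2 and 4 marked aPD1 tumors in all 12 pools, so hashtag and treatment cannot be told apart.

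Complement is a set of plasma proteins and receptors of innate immunity. C1q, built of the C1qa, C1qb and C1qc chains, binds immune complexes and dying cells and starts the classical pathway, which cleaves C4 and then C3. Factor B (Cfb) and properdin (Cfp) form and stabilize the convertase of the alternative pathway, and the receptors C3ar1 and C5ar1 bind the small fragments C3a and C5a. The liver supplies most circulating complement protein, while tissue macrophages are a main source of C1q.

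In the GENCODE vM21 annotation of GRCm38, all 9 genes lie on the minus strand. C1qa (chr4:136895917-136898803), C1qc (chr4:136889804-136893065) and C1qb (chr4:136880129-136886187) lie side by side within 18675 bases. C4b (chr17:34728380-34743882) and Cfb (chr17:34856374-34862518) lie in the major histocompatibility region, and C3 (chr17:57203970-57228136) lies on the same chromosome. C3ar1 (chr6:122847138-122856161), C5ar1 (chr7:16246743-16259540) and Cfp (chrX:20925454-20931555) lie elsewhere. Because the levels of the C1q genes went together over clusters, stretches before the starts of C1qb and C1qc were read. They came from the RefSeq tables (GRCm38.p6, minus strand, 5′ to 3′). Their positions are listed below, each followed by the number of bases from the stretch to the RefSeq start. That of C1qb ends at the RefSeq start, while that of C1qc ends at the GENCODE start, 151 bases before the RefSeq start. Both stretches hold the letters ACTTCCT, which on the other strand read AGGAAGT, a core sequence of the ETS family of transcription factors.
C1qb, chr4:136886201-136886450: 0
C1qc, chr4:136893066-136893164: 151
The first base of the motif lies 53 bases before the RefSeq start of C1qb and 195 before that of C1qc. The latter is 44 bases before the end of the C1qc stretch. Promoter windows of 300 bases were found for 6 of the 9 members, and C1qa, Cfb and C4b had none. AGGAAGT, read on both strands, was in the windows of C1qb, C1qc and C5ar1 (at 190 and 72 bases before the start) and not in those of C3, C3ar1 and Cfp. Of all 32851 windows, 9.35% held it. The interferon motif TTCNNNGAA (8.3% of windows) and GAAA repeated after 2 bases of any kind (3.44%) were in none of the 6 windows. The motifs were chosen for this description, and a match is a description of letters, not a site.

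Values of C4b and Cfb are uncertain because reads can be shared with a neighbor. Of the stretches of 90 bases in the C4b transcript, 18.9% also occur in C4a, which lies 65209 bases away. Of those in the Cfb transcript, 81.1% also occur in Gm20547, a gene model that contains 6107 bases of the Cfb gene and is no row of the count table. In the first 500 bases of the transcript, nearest to where 5′ reads start, the shares were 26.5% for C4b and 0% for Cfb. The C1q genes shared no such stretch with each other.

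The table held 93126 cells, with 53 to 3082 cells and 88816 to 17713491 UMIs per tumor and a median of 3333.5 UMIs per cell. Of 87940 distinct cell barcodes, 4990 occurred in more than 1 library, in 10176 cells, so cells were told apart by library and barcode. The deposited clusters carry numbers without names. Of the 27 clusters, 10 were named macrophage from 8 marker genes, Adgre1, Apoe, Lyz2, Csf1r, Cd68, Fcgr1 and Ms4a7 among them, of which 6 to 8 reached 100 CPM (UMIs scaled to a total of 1000000) in each, and no complement gene was used for a name. They held 68059 macrophages, at least 30 in a tumor, and 46554 to 11778425 macrophage UMIs per tumor.

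Transcripts of the 9 genes lay mostly in macrophages, 68059 of the 93126 cells, which held 2076556 of their 2155291 UMIs (96.3%). Most of these UMIs were of the C1q genes, and by gene the share ran from 79.3% for C4b to 97.4% for C1qc. In CPM, C3 and C4b stood higher in fibroblasts than in macrophages, C5ar1 in granulocytic cells and Cfp in a cluster of dendritic cells. C1qa stood at 1839 CPM in macrophages against 333 CPM in a cluster of dendritic cells (cDC2, cluster 14) and 75.5 CPM in T/NK cells, and 58.6% of macrophages (median 3481 UMIs) had a C1qa UMI against 26.1% of cDC2 (median 5301 UMIs) and 4.90% of T/NK cells (median 1918 UMIs). Thinned to 1000 UMIs per cell, with 4279 macrophages, 95 cDC2 and 2305 T/NK cells below that number left out, the shares were 49.8%, 14.5% and 3.05%. C1qb was in 63.9% of macrophages, 34.4% of cDC2 and 6.83% of T/NK cells, and C1qc in 59.8%, 26.9% and 5.00%. Cluster 14 was named cDC2 with 3 of 5 markers at the limit, and it also reached the limit for macrophage markers, as did granulocytic cluster 16. A single T/NK cluster, number 12, stood apart with 804 CPM of C1qa. It was led by the hemoglobin genes Hbb-bs and Hba-a1 and also reached the limit for macrophage markers. Without its cells, 3.43% of the other T/NK cells (median 1874 UMIs) had a C1qa UMI, at 15.3 CPM, and 1.84% did once thinned. These shares, with 5.20% for C1qb and 3.58% for C1qc, are taken as the background in cells that should lack the genes.

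Among the macrophages the C1q level divided the clusters, of which some were made partly with these genes, so that levels by cluster are a description without a test. C1qa was highest in cluster 26 (3069 ± 646 CPM, mean ± SD over 47 tumors with at least 20 cells of the cluster), whose leading genes were Cxcl13, Ch25h, Fcrls and Ms4a7 beside the C1q genes. Cluster 9, led by Lyve1, Cbr2, Folr2 and Cd163, genes of resident tissue macrophages, had 2431 ± 716 CPM over 20 tumors, and cluster 17, led by histone genes of dividing cells, had 2278 ± 516 CPM over 33. These did not differ beyond their spread. Next came cluster 21, led by Ifit3, Rsad2 and Cxcl10, genes of the interferon response (1464 ± 649 CPM), cluster 27, led by Gpnmb, Mmp12 and Arg1 (1319 ± 474 CPM), and clusters 5 (1197 ± 388 CPM) and 2 (1132 ± 371 CPM), which overlapped one another. Cluster 4, led by Adgre4, Ace and Chil3, genes of monocytes, had the lowest level of the 10, 113 ± 138 CPM over 44 tumors. C1qb had the same order among these clusters, and C1qc had it but for clusters 17 and 9, which changed places. Over the 27 clusters the genes most like C1qa, by Pearson's r of log2(CPM + 1) among 7374 genes, were C1qc (0.997), C1qb (0.997) and Trem2 (0.974), a receptor of lipid-laden macrophages.

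**Figure D1:**
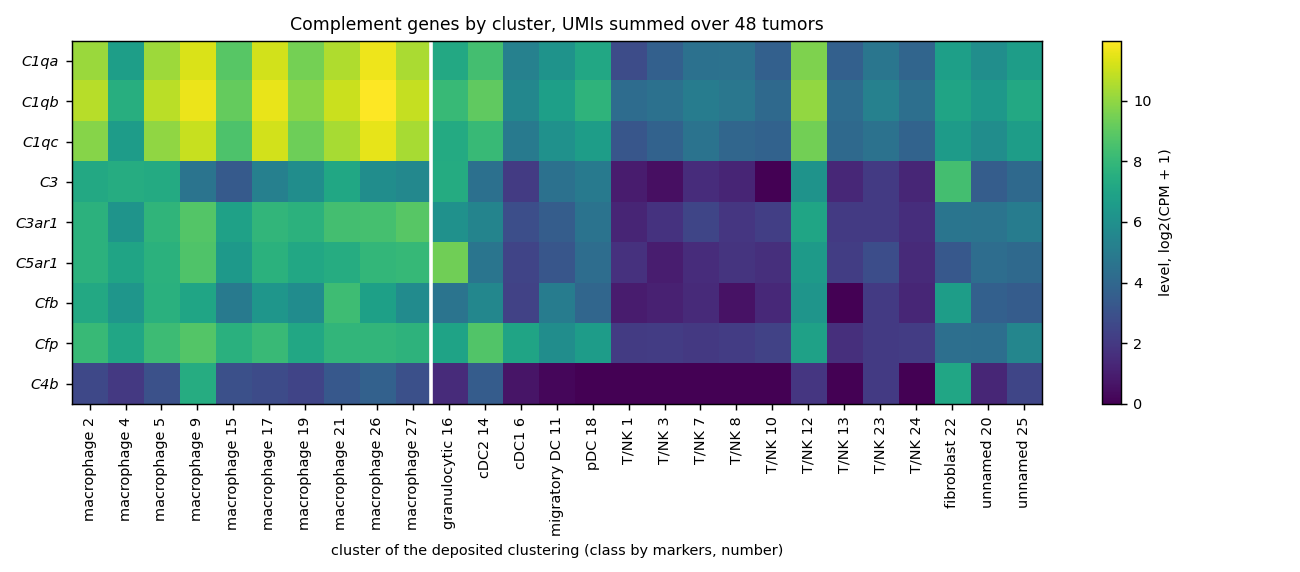
Level of each complement gene, as log2(CPM + 1) of UMIs summed over the 48 tumors, in each of the 27 clusters, with the 10 macrophage clusters left of the white line. C1qa, C1qb and C1qc were brightest in macrophage clusters 26, 9 and 17, C5ar1 in granulocytic cluster 16, and C3 and C4b had a level in fibroblast cluster 22 as well.

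C3, the protein on which all pathways meet, had another distribution. Among macrophage clusters its level was 154 ± 53 CPM in cluster 4 (44 tumors), 161 ± 75 CPM in cluster 5 (47 tumors), 144 ± 73 CPM in cluster 2 and 147 ± 68 CPM in cluster 21, against 83 ± 79 CPM in cluster 26 and 41 ± 24 CPM in cluster 17. Clusters 26, 9 and 17, those with most C1q, thus had a lower mean C3 than clusters 2, 4, 5 and 21, and over the 10 macrophage clusters, which share libraries, the r of C3 with C1qa was -0.21 while that with Cfb was 0.67. Fibroblast cluster 22 had 332 CPM and granulocytic cluster 16 had 165 CPM of C3. Of macrophages 24.6% had a C3 UMI, against 0.990% of T/NK cells, or 0.244% without cluster 12.

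Cfb, the protease of the alternative convertase, was highest in the interferon cluster 21 (295 ± 119 CPM over 45 tumors), followed by cluster 5 (196 ± 88 CPM) and cluster 2 (145 ± 66 CPM). Clusters 27 (58 ± 33 CPM) and 17 (77 ± 45 CPM) lay lower, with intervals of mean ± SD that did not meet that of cluster 21. A Cfb UMI was found in 31.0% of macrophages and 1.13% of T/NK cells, or 0.296% without cluster 12. Cfp, the only positive regulator of the pathway, was shared with dendritic cells. It stood at 416 ± 109 CPM in cluster 9 and 415 ± 97 CPM in cDC2 cluster 14, in which 73.8% of cells had a UMI, and 82.8% of its UMIs lay in macrophages, the rest mostly in cDC2 (14.0%).

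Over the 10 macrophage clusters the r with C1qa was 0.88 for C3ar1, 0.71 for C5ar1 and 0.75 for Cfp. C3ar1, the receptor of C3a, was highest in clusters 27 (445 ± 88 CPM) and 9 (431 ± 95 CPM), then 26 (338 ± 64 CPM) and 21 (321 ± 95 CPM), and lowest in cluster 4 (73 ± 30 CPM). Its nearest genes were Apoe (0.981), Trem2 (0.980) and Msr1 (0.979). C5ar1, the receptor by which C5a draws neutrophils, was highest in granulocytic cluster 16 (638 ± 266 CPM over 7 tumors), of which 42.7% of cells had a UMI at a median of 815 UMIs, and among macrophages in cluster 9 (361 ± 128 CPM).

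C4b, which encodes complement C4, had its highest levels in cluster 9 and fibroblasts. Cluster 9 had 155 ± 103 CPM over 20 tumors and fibroblast cluster 22 had 178 ± 194 CPM over 9, against 13 ± 7 CPM in cluster 26, the next of the macrophage clusters. A C4b UMI was found in 24.9% of the cells of cluster 9 and in 2.98% of all macrophages, against 0.0582% of T/NK cells, or 0.00871% without cluster 12. Cluster 9 made up 1.502% of macrophages. Among the genes most like C4b were C1ra (0.849) and Eng (0.842).

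The first comparison asked whether complement transcripts of macrophages differ between the classes of strains. With tumors as replicates, C1qb and C4b were higher in responder strains, and C1qa and C1qc lay in the same direction without passing the test. The fit had no term for strain, of which each class held 3. With counts summed to 1 library per strain, no member was called. C1qb ranged from 1419 to 3850 CPM (median 2937) in the macrophages of 20 responder tumors and from 1187 to 3535 CPM (median 1974) in those of 18 non-responder tumors. The groups overlapped widely, and the high responder tumors were those of CC001 and CC002, while CC075 (median 1849 CPM) lay among the non-responder strains. C4b ranged from 6.103 to 32.7 CPM (median 10.8) in responder and from 3.67 to 13.5 CPM (median 7.10) in non-responder tumors, on 5 to 223 UMIs per tumor. Its highest values were the CC001 isotype tumors of pool 1 (32.7 CPM) and pool 12 (28.2 CPM).

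In edgeR's quasi-likelihood test with Benjamini-Hochberg adjustment over 11873 genes, 779 genes (6.56%) were called, and 487 (4.1%) were higher in responder strains. Of the 9 members 2 were called, both higher. The log2 difference was 0.46 ± 0.14 (SE) for C1qb (adjusted p = 0.0370) and 0.82 ± 0.20 for C4b (adjusted p = 0.00748). For C1qc it was 0.46 ± 0.15 (adjusted p = 0.0607) and for C1qa 0.41 ± 0.15 (adjusted p = 0.0934). C3 differed by 0.24 ± 0.25, with -0.38 ± 0.41 in isotype tumors alone and 0.85 ± 0.26 in aPD1 tumors alone (adjusted p = 1.00 and 0.0574). Values of C3ar1, C5ar1, Cfb and Cfp lay between -0.11 and -0.06, all with an adjusted p above that of C1qa. The median over the 9 members, which is the value of C3, was 0.24, against -0.0045 over all genes tested. That median was 0.10 with the pool as a block, 0.073 without pool 12 and 0.45 without CC080. C1qa ranged from 950.4 to 2856 CPM (median 2111) in responder and from 935 to 2601 CPM (median 1447) in non-responder tumors. C1qc ranged from 877 to 2541 CPM (median 1859) and from 720 to 2316 CPM (median 1287). With the pool as a block (1060 genes, 8.93%), C1qb missed the threshold (0.38, adjusted p = 0.0529) and C1qc passed it (0.39, adjusted p = 0.0484), while C4b was called in both. DESeq2 (7.89% of genes) called C1qb, C1qc and C4b, and a fit with a term for pools 1 to 6 against 7 to 12 (9.27%) called all 3 C1q genes and C4b. That split follows the pool numbers, and the labels give no dates. In pools 1 to 5 alone the difference was 0.52 for C1qb and 0.76 for C4b, and in pools 8 to 12 alone it was 0.42 and 0.97, where no member passed the threshold. In isotype tumors alone (0.195% of genes called) C4b differed by 0.81 ± 0.30 and was not called (adjusted p = 0.639), nor was any other member, and in aPD1 tumors alone (6.34%) C4b was the member called (0.81 ± 0.23, adjusted p = 0.0422).

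The call of C1qb lay near the threshold, and its direction was kept without any 1 pool or strain. C1qb missed the threshold without pool 1 (0.42), 2 (0.49), 4 (0.48), 5 (0.38), 8 (0.40), 11 (0.48) or 12 (0.45), and without CC001 (0.39), CC002 (0.32), CC036 (0.35) or CC079 (0.45). C4b missed it without CC001 (0.59, adjusted p = 0.0522) and was called without any other strain or pool. With counts summed to 1 library per strain, 3 against 3, 3 of 14571 genes (0.0206%) and no member were called. C4b had the one unadjusted p under 0.05 among the members (0.77 ± 0.21, adjusted p = 0.711 by edgeR).

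**Figure D2:**
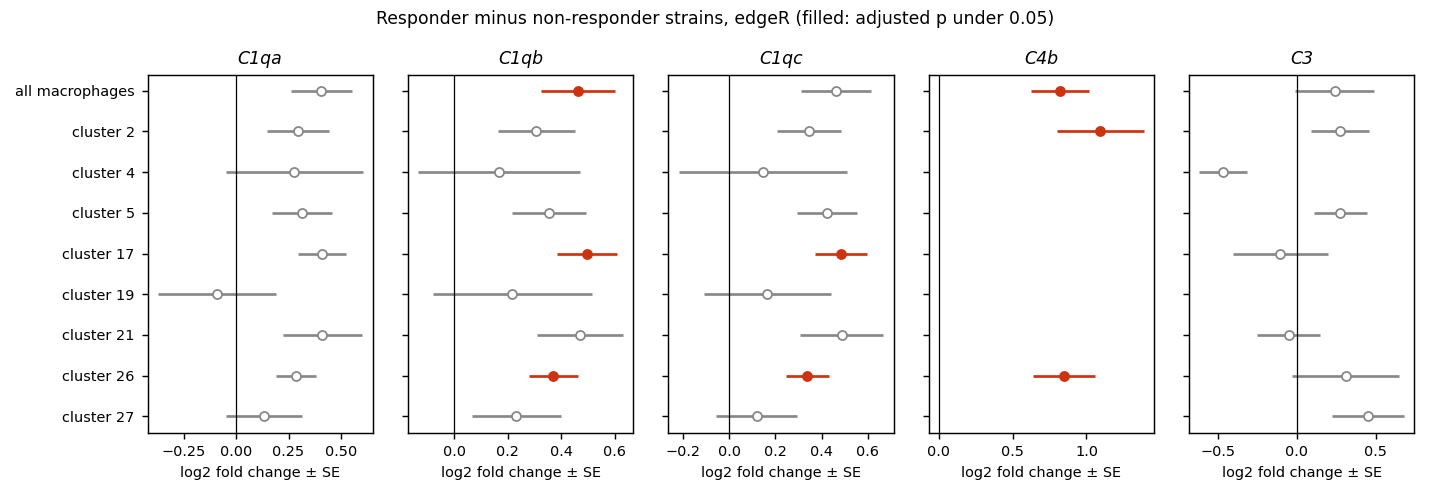
Log2 difference of responder minus non-responder strains for 5 complement genes, with its SE, over all macrophages and within each cluster that could be fitted, where filled red points passed an adjusted p of 0.05. The C1q genes lay right of 0 in every row but C1qa in cluster 19, and C4b was fitted within clusters 2 and 26 only.

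The same comparison was made within single clusters, again with tumors as replicates and no term for strain. In cluster 26, which has the 3 C1q genes among its leading genes and where 7.59% of genes were called, C1qb (0.37 ± 0.09, adjusted p = 0.00752), C1qc (0.34 ± 0.09, adjusted p = 0.0200) and C4b (0.85 ± 0.21, adjusted p = 0.00793) were higher in responder strains by edgeR. In the dividing cells of cluster 17 (1.34% called) C1qb (0.49 ± 0.11, adjusted p = 0.0201) and C1qc (0.48 ± 0.11, adjusted p = 0.0218) were, and in cluster 2 (3.83% called) C4b was (1.10 ± 0.29, adjusted p = 0.0231). No member was called within clusters 4 (0.473% of genes called), 5 (4.3%), 19 (0.35%), 21 (1.72%) and 27 (0.726%), and C1qb lay above 0 in each. Cluster 26 made up 28.3 ± 10.4% of the macrophages of responder tumors (n = 20) and 22.2 ± 9.6% of those of non-responder tumors (n = 18). Cluster 9 made up 1.36 ± 1.98% and 1.94 ± 1.36%, and without it, an alternative chosen after seeing the data (6.51% of genes called), the difference of C4b was 1.01 (adjusted p = 1.58e-04) and that of C1qb 0.47. With each cluster given equal weight (limma, 3.19%), no member was called, 2 had an unadjusted p under 0.05 and C4b differed by 0.22. The summed markers of fibroblasts stood at 5.92 and 5.99 CPM in the macrophages of responder and non-responder tumors. The summed cDC2 list (Cd209a, Flt3, Clec10a, Ccr2 and Dpp4) stood at 365 and 527 CPM. It was not split by gene, and so is no measure of cDC2 cells alone. The part of either list in the result was not tested.

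Levels by host strain were compared in all 48 tumors, with treatment as a covariate. In the edgeR F test over 8 strains 6464 of 12510 genes (51.7%) were called, and 7 of the 9 members were among them, Cfp (adjusted p = 0.0688) and C3 (adjusted p = 0.117) being the others. DESeq2 (59.1% of genes) also called Cfp, and with clusters of equal weight (31.2%) C3 was called and C4b was not. Cfb had the smallest adjusted p of the members (1.63e-05). CC080 tumors had the highest Cfb, with 172 to 271 CPM (median 236). The 4 CC007 tumors had 165, 64.4, 242 and 211 CPM (median 188), with the lowest in the tumor of 30 macrophages. B6 had 124 to 229.5 CPM (median 176), CC075 with 93.6 to 198 CPM (median 155) and CC002 with 89.2 to 228 CPM (median 126). CC036 had 52.5 to 129 CPM (median 90.3), CC079 had 63.3 to 142 CPM (median 83.8), and CC001 had 49.3 to 204 CPM (median 85.4). All CC080 tumors lay above every CC036 and CC079 tumor, while CC080 overlapped with CC007 and B6, the next in the order of medians. The low medians of CC079, CC001 and CC036, strains of both classes, did not differ beyond their spread.

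**Figure D3:**
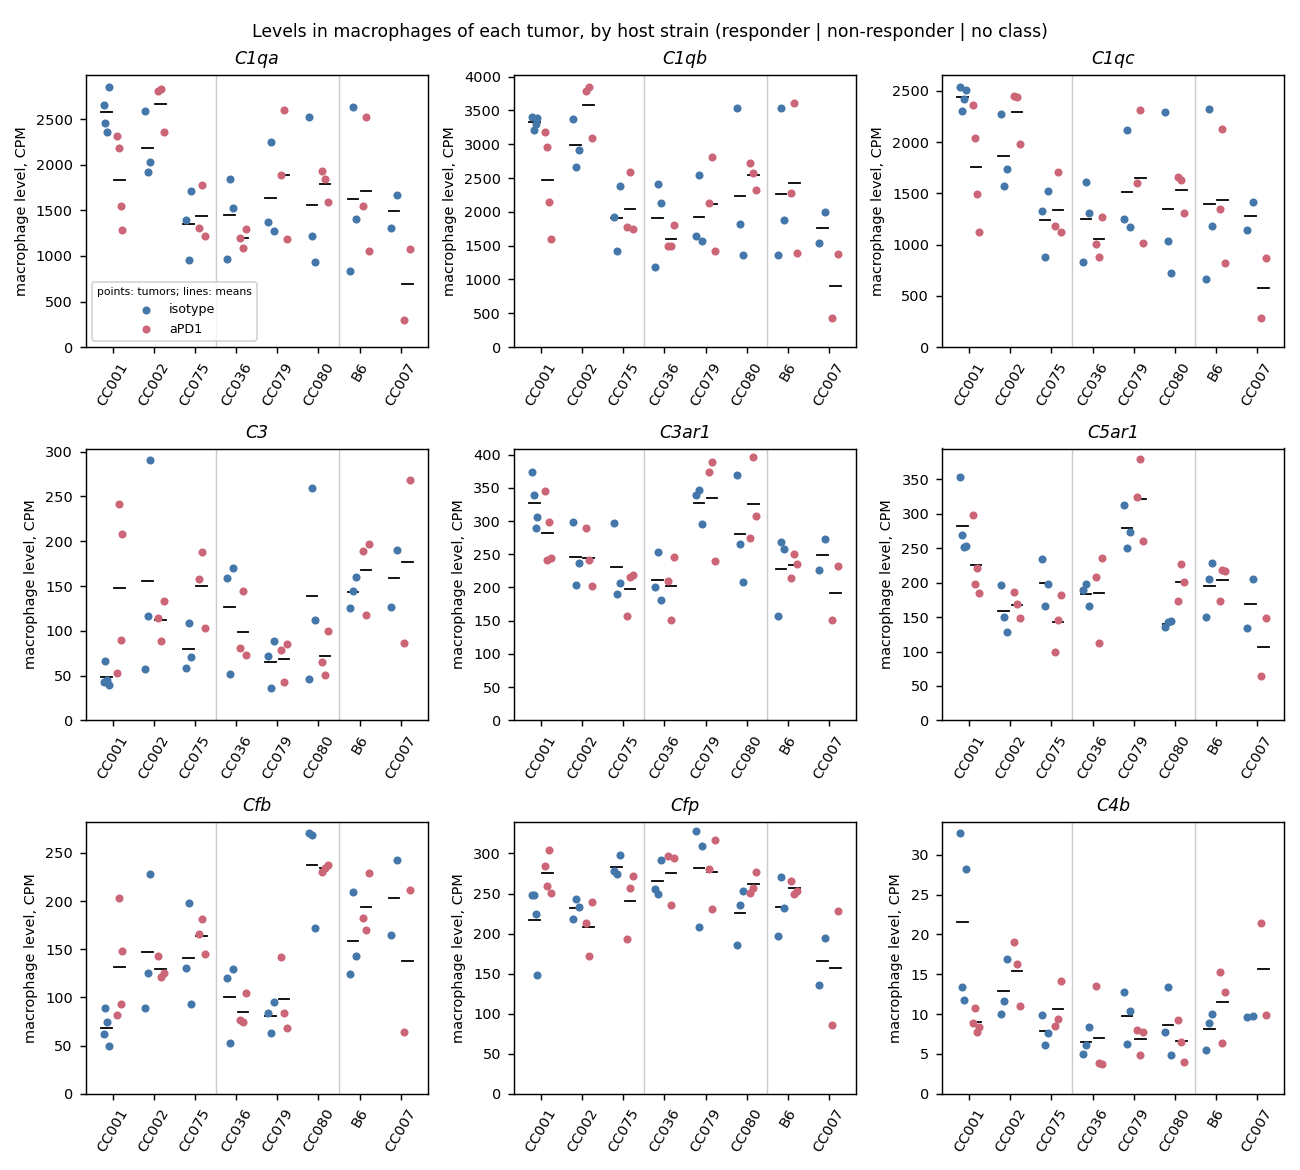
Level of each complement gene in the macrophages of each tumor in CPM, by host strain, with isotype tumors in blue, aPD1 tumors in red and a line at each mean. Cfb in CC080 (172 to 271 CPM) and C5ar1 in CC079 (250.3 to 379 CPM) stood above most other strains, and the C1q genes were highest in CC001 and CC002.

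Because each pool held 2 strains, tumors could be set against the tumor of the other strain with the same treatment in the same library. Cfb was higher in CC080 in 6 of 6 tumors (median log2 difference 1.10) and lower in CC036 in 6 of 6 (-0.97). With the pool as a block 1623 genes (13%) were called in the strain test, and of the members Cfb (adjusted p = 0.00165) and C1qb (adjusted p = 0.0210). Within clusters, fitted after the levels were seen, Cfb was called between strains in all 8 that could be fitted. The share of all genes called there was 40.3% in cluster 2, 17.1% in 4, 23.8% in 5, 6.42% in 17, 4.22% in 19, 15.9% in 21, 33.1% in 26 and 19% in 27. In the interferon cluster 21 its mean was 492 CPM in CC080, 209.6 CPM in CC036, 224 CPM in CC001 and 383 CPM in CC007, and in cluster 2 it was 241 CPM in CC080 and 90.8 CPM in CC036.

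The receptors had another order. C5ar1 (adjusted p = 3.62e-05) was highest in CC079, with 250.3 to 379 CPM (median 293), and next in CC001, with 185 to 353 CPM (median 253), and these overlapped. The median of the other strains lay between 141 CPM (CC007) and 212 CPM (B6). Within clusters it was called in 6 of 8, the exceptions being 21 and 27. C3ar1 (adjusted p = 2.15e-04) had its highest median in the same CC079 tumors, with 239.9 to 389.5 CPM (median 342). Next by median were CC001 (median 302) and CC080 (208 to 397 CPM, median 291), which held the highest single tumor. The lowest median was that of CC036 (206). Neither receptor was called with the pool as a block (adjusted p = 0.139 for C5ar1 and 0.660 for C3ar1).

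The C1q genes were highest in CC002 and CC001. C1qa had a median of 2474 CPM in CC002 (1918 to 2837) and 2337 CPM in CC001, and of 1625 CPM in CC079, 1719.8 CPM in CC080, 1482 CPM in B6, 1351 CPM in CC075 and 1248 CPM in CC036. The lowest tumor of all, 301 CPM, was the CC007 aPD1 tumor of pool 6, which had 30 macrophages. The lowest CC002 tumor lay above the highest CC036 and CC075 tumors (1847 and 1782 CPM). In the strain test the adjusted p was 0.00804 for C1qa, 0.00260 for C1qb and 0.00686 for C1qc. With the pool as a block that of C1qa was 0.250 and that of C1qc 0.232. C4b (adjusted p = 0.00788) was lower in CC079 than in the other strain of the pool in 6 of 6 tumors (median log2 difference -1.09). That other strain was CC001 in pools 1 and 2 and CC002 in pool 5. CC079 tumors had 4.88 to 12.8 CPM of C4b, which overlapped with CC036 (3.67 to 13.5 CPM) and CC080 (4.04 to 13.4 CPM). With the block the adjusted p of C4b was 0.0983.

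Since the chains of C1q are assembled together, the ratio of their UMIs was also followed. The ratio of C1qb to C1qa UMIs in macrophages ranged from 1.08 to 1.23 (median 1.16) in the 6 CC079 tumors. It ranged from 1.19 to 1.40 in CC001, from 1.30 to 1.43 in CC002, from 1.36 to 1.49 in CC075, from 1.23 to 1.40 in CC036 and from 1.40 to 1.49 in CC080. In B6 hosts it ranged from 1.33 to 1.64 and in CC007 hosts from 1.17 to 1.43. The CC007 value of 1.43 came from the tumor of 30 macrophages, on 14 C1qa UMIs, and the other CC007 tumors had 1.17, 1.19 and 1.28. All CC079 tumors thus lay below all tumors of B6, CC002, CC075 and CC080, and each lay below the tumor of the other strain in its pool. CC080 lay above its pool partner in 6 of 6 tumors (median log2 difference 0.063), as did B6 in 6 of 6 (0.14), while CC007 lay below in 4 of 4 (-0.17). Strains accounted for 62.5% of the variance of the ratio (one-sided permutation test of strain labels over 48 tumors, p = 1e-05, the smallest value that 100000 permutations can give, and 9e-05 with labels permuted within pools), and for 39.0% without CC079 (permutation p = 0.00508). The ratio test was chosen after the levels were seen, as was its form within pools, and tumors of a pool share a library.

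The ratio also differed between clusters, from 1.20 in cluster 15, 1.24 in cluster 9 and 1.25 in cluster 26 to 1.44 in cluster 2 and 1.74 in cluster 4. Within cluster 2 alone the mean was 1.30 in CC079 tumors and 1.35 to 1.55 in those of the other strains. The ratio of C1qc to C1qa was highest in CC001 (0.949 ± 0.056, n = 8) and lowest in B6 (0.836 ± 0.038, n = 6). Strains accounted for 48.0% of its variance (permutation p = 2.80e-04, and 1.20e-04 within pools), and in aPD1 tumors alone the test did not pass (45.5%, permutation p = 0.135).

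**Figure D4:**
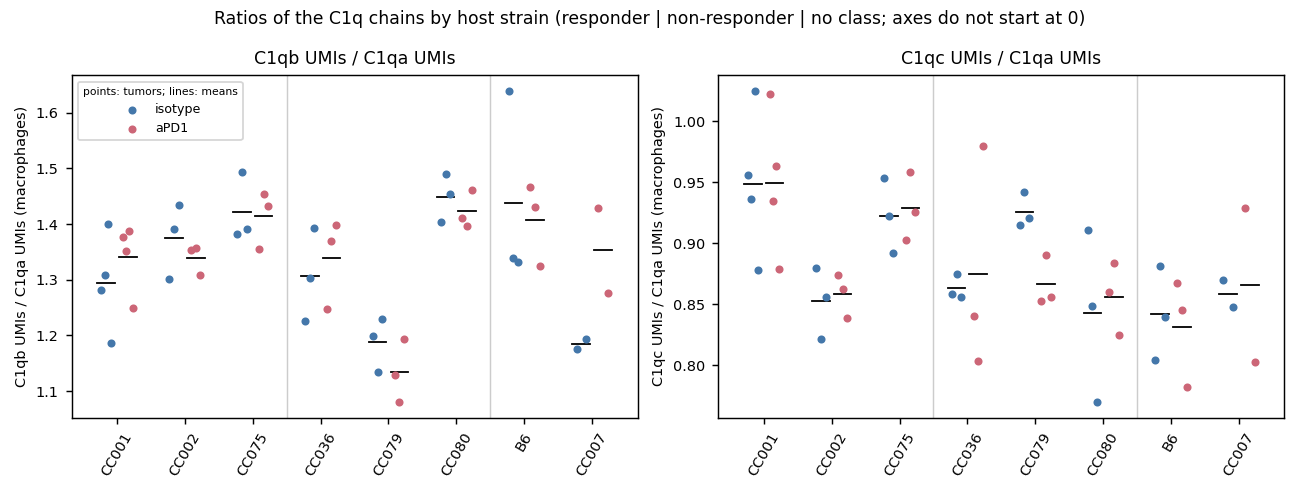
Ratio of C1qb to C1qa UMIs (left) and of C1qc to C1qa UMIs (right) in the macrophages of each tumor by host strain, with isotype tumors in blue, aPD1 tumors in red, a line at each mean and axes that do not start at 0. CC079 had the lowest mean on the left (tumors at 1.08 to 1.23, overlapping with CC001, CC036 and CC007), and CC001 the highest mean on the right. The highest CC007 point on the left is a tumor of 30 macrophages.

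The last question was whether a single dose of aPD1 changed complement transcripts after 48 h. No gene passed the edgeR test in responder strains (0 of 11873, 0%, with 821 at an unadjusted p under 0.05), in non-responder strains (0 of 11873, 0%, with 91) or in the difference of both effects (0 of 11873, 0%, with 680). DESeq2 called 2 (0.0168%), 0 and 1 (0.00842%) genes and the fit with the pool as a block called as many, and no member was among them. None of these fits had a term for strain or for the pair of strain and pool. Differences between strains therefore stayed at least partly in their spread, and the lack of calls is not the outcome of a paired test. C3 was the member with the largest estimate. In CC001 hosts its level was 42.7, 66.3, 44.7 and 39.6 CPM in the isotype tumors of pools 1, 2, 4 and 12 and 52.5, 242, 89.8 and 208 CPM in the aPD1 tumors of the same pools. In CC075 hosts it was 58.0, 109 and 71.1 CPM with isotype and 158, 188 and 103 CPM with aPD1 in pools 9, 10 and 11. The aPD1 tumor was the higher in all 7 of these pairs.

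CC002 hosts did not share this direction. Their isotype tumors of pools 3, 5 and 12 had 57.7, 117 and 291 CPM of C3 and their aPD1 tumors 114.5, 88.4 and 133 CPM, the tumor of 291 CPM having 125 macrophages. Over responder strains C3 was the higher with aPD1 in 8 of 10 pairs (log2 difference 0.79 ± 0.35, unadjusted p = 0.0292, adjusted p = 0.705), and over non-responder strains in 4 of 9 (-0.47 ± 0.36, adjusted p = 1.00). The difference of the effects was 1.26 ± 0.50 (unadjusted p = 0.0166, adjusted p = 0.868). Without pool 4, which held a CC080 isotype tumor of 259 CPM, the non-responder value was -0.11 and the difference 0.87 (unadjusted p = 0.0890 by edgeR), and without pool 9 the non-responder value was -0.72. Without tumors of under 500 cells, among them the CC002 tumor of 125 macrophages, the responder value was 1.10 ± 0.32 (unadjusted p = 0.00143, adjusted p = 0.395 by edgeR) and the difference 1.56 ± 0.45 (unadjusted p = 0.00141, adjusted p = 0.639). Within clusters, an alternative chosen after seeing the data, no gene passed the edgeR test of that difference in cluster 2, 5 or 26 (0%, with 803, 563 and 551 genes at an unadjusted p under 0.05). Within cluster 2 it was 1.26 ± 0.37 (adjusted p = 0.290), within cluster 5 1.25 ± 0.34 (adjusted p = 0.373) and within cluster 26 1.96 ± 0.68 (adjusted p = 0.767). It was smaller within clusters 17 and 27, where the estimates of C3 with aPD1 lay above 0 in both classes. The effect in responder strains within cluster 2, where 0.148% of genes were called, was 0.98 ± 0.26 (adjusted p = 0.107). This was the highest of the clusters in which C3 was fitted. The effect was 0.97 within cluster 26, 0.80 within 5, 0.45 within 21, 0.34 within 17, 0.24 within 27 and 0.15 within 4, and C3 was called in none. Cluster 2, of more C3 than cluster 26, made up 22.5 ± 7.1% of the macrophages of responder isotype tumors and 32.3 ± 9.0% of those of responder aPD1 tumors (n = 10 each). With each cluster given equal weight (limma), the C3 effect in responder strains was 0.51 ± 0.27 and the difference of effects 0.74 ± 0.39 (adjusted p = 0.832 and 0.907).

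C5ar1 was lower with aPD1 in most responder pairs and higher in most non-responder pairs, without passing the test. In CC001 hosts it was 353, 268, 251 and 254 CPM with isotype and 298, 198, 220.5 and 185 CPM with aPD1, and in CC080 hosts 136, 142 and 144 CPM with isotype and 174, 226 and 201 CPM with aPD1. Over all strains it was lower with aPD1 in 8 of 10 responder pairs and higher in 7 of 9 non-responder pairs. The difference of the effects was -0.45 ± 0.27 (adjusted p = 0.868 by edgeR, unadjusted p = 0.102), or -0.45 ± 0.20 with the pool as a block (unadjusted p = 0.0293, adjusted p = 0.406). Cfb had a log2 difference of 0.40 ± 0.30 in responder strains, being higher in 7 of 10 pairs and in all 4 of CC001, and of -0.03 ± 0.32 in non-responder strains. C4b had -0.32 ± 0.27 and -0.32 ± 0.29, and without cluster 9, an alternative chosen after seeing the data, the responder value was 0.21 ± 0.23. Cluster 9 made up 8.92% of the macrophages of the CC001 isotype tumor of pool 1 and 0.284% of those of the aPD1 tumor, and 3.52% and 0.940% in pool 12. The responder value of C4b was -0.068 without pool 1 and -0.049 without pool 12, and was -0.48 without pool 3. The non-responder value was -0.20 without pool 4 and -0.53 without pool 8. The C1q genes, C3ar1 and Cfp lay between -0.11 and 0.08 in both classes. On simulated counts of 11873 genes, the test of aPD1 in responder strains recovered 36 of 50 genes changed by 2-fold and 27 of 50 changed by 1.5-fold. The simulated tumors carried no differences between strains or pools, so recovery in the data may differ.

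**Figure D5:**
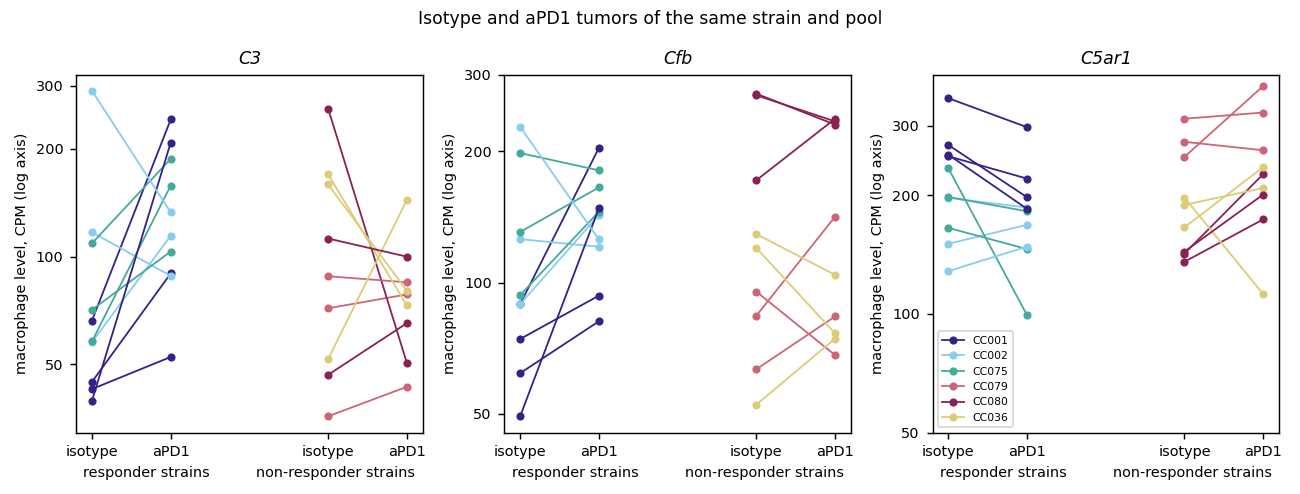
Macrophage level of C3, Cfb and C5ar1 in CPM (log axis) in the isotype and the aPD1 tumor of the same strain and pool, joined by a line, for responder strains (left pair of positions) and non-responder strains (right pair), colored by strain. C3 is higher at the aPD1 end of 8 of 10 responder lines and 4 of 9 non-responder lines, and C5ar1 is lower there in 8 of 10 responder lines.

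Of 49 other complement genes on a list, 48 were rows of the count table and 15 passed the filter in the comparison of classes. By edgeR 3 of the 15 were called, beside the 6.56% of all genes: C1ra (0.52 ± 0.13, adjusted p = 0.0109) and C1s1 (1.69 ± 0.37, adjusted p = 0.00356), the proteases that C1q carries, were higher in responder strains, and the scavenger receptor Colec12 was lower (-0.83 ± 0.23, adjusted p = 0.0257). The same 3 were called with DESeq2 and with the pool as a block, and the median of the list was -0.02. Macrophages held 8.68 CPM of C1ra and 1.03 CPM of C1s1, against 103 and 245 CPM in fibroblast cluster 22. None of the 15 was called with aPD1 in either class or in the difference by edgeR or DESeq2 (4, 0 and 3 at an unadjusted p under 0.05 by edgeR), and 11 of 16 were called between strains, beside 51.7% of all genes, or 5 of 16 with the pool as a block (C1s1, C5ar2, Cd46, Cd59a and Colec12), beside 13%. Of the other steps of the cascade, macrophages held 0.0199 CPM of Hc, the gene of C5, and C2, the protease of the classical convertase, was at 5.505 CPM in macrophages and 44.2 CPM in fibroblast cluster 22. The inhibitor Serping1 was at 0.216 CPM in macrophages and 929.7 CPM in fibroblasts. Of the integrin chains of the receptor for cleaved C3, Itgam stood at 374 CPM and Itgb2 at 301 CPM in macrophages, and Itgam differed by -0.07 ± 0.06 between classes.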

How the data were processed

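The members and the gene lists were chosen with earlier results of these data known. The authors deposited raw UMI counts per gene and cell, with library, treatment, animal, strain, hashtag and cluster for each cell. They aligned reads with Cell Ranger to GRCm38 with GENCODE vM23, removed cells of high mitochondrial or ribosomal share and clustered cells with Seurat 5.0.1. They assigned hashtags to specimens, and no doublets were called here, so that they may remain. T/NK cluster 12, cDC2 cluster 14 and granulocytic cluster 16 had markers of macrophages too, and whether they hold doublets was not tested. The alignment assigns a read to the gene it fits uniquely, which bears on C4b and Cfb. Reads of all hosts were aligned to the same reference, and whether those of CC founder alleles align less well was not tested. The clusters were made after a correction for the processing date of libraries. Hashtag sequences were left out, and all 93126 cells carried a strain that their pool's label names. One animal identifier stands on 2 CC080 tumors (isotype of pool 3, aPD1 of pool 4).

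Here the deposited counts were summed per tumor over the macrophage clusters (Python 3.11.15, numpy 2.4.6, pandas 2.3.3) and tested in R 4.3.3 with edgeR 4.0.16 (TMM, filterByExpr, quasi-likelihood F test, 4 groups of class and treatment), threshold 0.05 after Benjamini-Hochberg adjustment over all genes. DESeq2 1.42.0 and limma 3.58.1 served as alternatives. CPM are counts scaled to a total of 1000000 in the same cells. Within clusters, tumors with at least 20 cells were used where each group kept at least 5 tumors. A cluster was open to a cell class with at least 3 of its markers and 50% of its list at 100 CPM, and the class of highest score named it. Cluster 20 was open to no class. Cluster 25 scored highest for MC38, and was left unnamed by a choice made after its leading genes, immunoglobulin and keratin genes together, were seen. Named were all members, every other complement gene past the threshold in the class and aPD1 comparisons, and the 3 genes most like each member among those of at least 50 CPM in a cluster, and others of the list by role after their values were seen. Some genes that this rule would name are not reported here.

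The isotype and aPD1 tumors of a strain came in the same pool, which pairs them by the labels. Deviations from the group means correlated above 0.1 in 18 of 19 pairs (lowest -0.04, median 0.41, highest 0.71), and the pool as a block was an alternative. Each pool held 2 strains, so that block is not the pair, which no fit used. The labels do not say that tumors of a group came from separate litters, and p-values measure the spread between these tumors. The test of classes, run on simulated counts for 11873 genes, recovered 42 of 50 genes changed by 1.5-fold and 48 of 50 changed by 2-fold, with 7 unchanged genes called. The simulated tumors carried no differences between strains or pools. These counts therefore do not measure how often such differences give calls between classes in the data.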

Additional observations from a re-analysis of the deposited data

Results flagged for a closer look

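Tumors that stood apart from their group were sought in 66 groups of 4 to 10 tumors, of which chance gives about 1 in 20. Macrophage C3 was 291 CPM in the isotype tumor of CC002 in pool 12, which had 248 cells, where the next responder isotype tumor had 117 CPM. The CC001 isotype tumor of pool 1 had 353 CPM of C5ar1, and the next of the 4 CC001 isotype tumors 268 CPM. The CC001 isotype tumor of pool 12 had 148 CPM of Cfp, and the next lowest responder isotype tumor 219 CPM. The CC036 aPD1 tumor of pool 10 had a C1qc to C1qa ratio of 0.980, and the next of the non-responder aPD1 tumors 0.890.

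Pairs of isotype and aPD1 tumors moved in opposite directions in some strains, and these differences between strains were not tested. C1qa was lower with aPD1 in all 4 CC001 pairs (median log2 difference -0.40) and higher in all 3 CC002 pairs (0.21), C1qb likewise (-0.37 and 0.17), and C1qc likewise (-0.43 and 0.19). C5ar1 was lower in all pairs of CC001 (-0.34) and CC075 (-0.18) and higher in all 3 of CC080 (0.48). Cfp was lower in all 3 pairs of CC075 (-0.13) and higher in all pairs of CC001 (0.32) and CC080 (0.12). With 9 members and 7 strains of at least 3 pairs, some such patterns can arise by chance.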

How the results depend on the processing

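Leaving out 1 pool or strain in turn gave 478 to 939 genes between classes, 0 to 1 with aPD1 in responder strains, and 5010 to 6906 between strains. The count between classes was 379 with clusters of equal weight, 331 in pools 1 to 5 alone, 332 in pools 8 to 12 alone, 22 in isotype tumors alone, 720 in aPD1 tumors alone and 3 with 1 library per strain. It was 362 within cluster 2, 21 within 4, 351 within 5, 95 within 17, 11 within 19, 96 within 21, 750 within 26 and 39 within 27, where fewer genes were tested. Between strains 3903 genes were called with clusters of equal weight and 1623 with the pool as a block. With aPD1 in responder strains DESeq2 called 2 and the block 2, and in the difference of effects each called 1. Library size in place of TMM gave 339 genes higher and 529 lower in responder strains, against 487 and 292. The block changed no call of a member other than those given above.

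Of 30 alternatives outside single clusters, C4b was called in 24, C1qb in 10, C1qc in 8 and C1qa in 3, all in the same direction. Of the 5 members that were never called between classes, Cfp kept its direction in those 30 and C3, C3ar1, C5ar1 and Cfb did not. C3 was -0.38 in isotype tumors, against 0.85 in aPD1 tumors, and -0.47, -0.10 and -0.052 within clusters 4, 17 and 21. C3ar1 was 0.10 in pools 8 to 12 and 0.026 in isotype tumors, and ranged from -0.25 to 0.067 without 1 pool or strain. C5ar1 was 0.16 in isotype tumors and 0.18 within cluster 17, and ranged from -0.34 to 0.23. Cfb was 0.034 without the CC080 tumors of 1 animal identifier, 0.29 in pools 8 to 12, 0.087 in aPD1 tumors and 0.0013 within cluster 5, and ranged from -0.36 to 0.52. C1qa was -0.092 within cluster 19. With aPD1, C4b was 0.21 in responder strains without cluster 9, an alternative chosen after seeing the data, as were C3 in non-responder strains within cluster 17 (0.29) and 27 (0.065) and the ratio of C1qc to C1qa in aPD1 tumors (45.5%, permutation p = 0.135). The cause of these changes was not tested.

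Thinned to 1000 UMIs, the share of macrophages with a UMI was 9.79% for C3, 22.0% for C3ar1, 17.3% for C5ar1, 12.3% for Cfb, 19.6% for Cfp and 1.00% for C4b, so these shares depend on depth. Depth limits C4b most, which had 5 to 223 UMIs in a classed tumor, and tumors of few macrophages. Against the spread between strains, 3 in a class, no member passed the test of class.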
